A study of Mus musculus with 24 samples.

Results

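The 10 genes of the Wnt pathway considered here were described across 6 groups of mouse kidneys: the ligands Wnt4, Wnt5a, Wnt7b and Wnt9b, the target Axin2, the nuclear effectors Lef1 and Tcf7, and the secreted inhibitors Sfrp1, Sfrp2 and Dkk3. The members were chosen by gene symbol and are 10 of the 54532 genes in the count table, each with a single row. All 10 passed the filter on low expression, which kept 22570 genes.

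The kidneys came from 24 mice of the C57BL/6 strain, 18 days old, and each library is RNA from whole kidney. Every mouse carried the hypomorphic RC missense allele of Pkd1, the gene mutated in most dominant polycystic kidney disease. In the control groups, labelled RC/+, the second Pkd1 allele was intact and the mice lacked Cre, and in the cystic groups, labelled RC/-, that floxed allele was inactivated by Cre under the Ksp promoter, which is active in tubule epithelium. Cystic genotype and presence of Cre cannot be told apart. In the edited groups the miR-17 binding motif had been deleted from the RC allele. The paper reports that cystic disease was almost fully relieved in edited RC/- mice at this age. Cystic here therefore names the RC/- genotype, not the state of the edited kidneys. D18 mice descended from founder 3 and D53 mice from founder 2, so each edited line rests on 1 founder. No founder is given for the RC/+ and RC/- mice, so the edit and descent from a founder cannot be told apart in comparisons with them. The groups were RC/+ (n = 3), RC/+ D18 (n = 3), RC/+ D53 (n = 3), RC/- (n = 5), RC/- D18 (n = 5) and RC/- D53 (n = 5). Each group's spread is that between mice, given that each library was made from the kidney of one animal.

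Libraries held 20379982 to 30837488 counted reads. Pkd1 itself ran from 49.9 to 51.5 CPM (reads of a gene per 1000000 counted reads of the library) in RC/+ and from 51.9 to 65.2 CPM in RC/-. It ran from 56.9 to 65.6 CPM in RC/+ D18 and from 52.8 to 62.3 CPM in RC/+ D53. In RC/- D18 it ran from 53.8 to 71.4 CPM and in RC/- D53 from 38.4 to 63.5 CPM. A whole-gene count cannot check either the missense change, the deleted floxed part or the motif deletion. Markers of the proximal tubule were present in every library, with a summed level of 1812 CPM at the lowest. Replicate numbers run through all groups and number the libraries. Libraries 20 to 27, which are 3 of the 5 RC/- D18 libraries and all 5 RC/- D53 libraries, held skeletal muscle transcripts. The 6 muscle markers summed to between 146.7 and 193.9 CPM in RC/- D53 and reached 180.2 CPM in RC/- D18, while they stayed at 9.36 CPM or less in RC/- and at 7.90 CPM or less in each RC/+ group. In RC/- D53 against RC/- or against RC/+ D53, the group difference and this set of libraries cannot be told apart.

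Wnt proteins are secreted ligands that bind Frizzled receptors. In the canonical branch, binding spares beta-catenin from destruction, and beta-catenin then joins the DNA-binding TCF/LEF factors to switch on targets such as Axin2, whose product feeds back to restrain the signal. Sfrp proteins bind Wnt ligands outside the cell, and Dkk3 is a divergent member of the Dickkopf family. In the developing kidney, Wnt9b from the ureteric epithelium and Wnt4 in the induced mesenchyme drive formation of nephrons, Wnt7b from the collecting duct supports growth of the medulla, and Wnt5a signals mainly through branches that do not need beta-catenin.

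Sequences bear on these genes in a pair of ways. Since the edits removed a miR-17 motif, the annotated 3′ untranslated regions of the members were searched for the same 7 bases, GCACTTT, the reverse complement of bases 2 to 8 of miR-17-5p. These bases occurred in 1 of the 10 members, Wnt9b, and in 11.8% of the 21020 genes with such a region. In Wnt9b they lie at positions 482 and 2443 of a region of 3386 bases, on the minus strand at chr11:103730262-103730268 and chr11:103728301-103728307. The miRNA (RefSeq, GRCm38.p6) is printed with its seed in capitals, and the sites (GENCODE M21, GRCm38) with the 7 bases in capitals, beside the Pkd1 site that the study deleted on the edited allele.
miR-17-5p: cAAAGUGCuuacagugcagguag
Pkd1 site: atggggcttctGCACTTTaaaaaggctgtg
Wnt9b site at 482: gagcaagggaaGCACTTTaggcttgggtgg
Wnt9b site at 2443: ggatttgtaaaGCACTTTccatcttcagaa
The edits were aimed at the Pkd1 site, not at those of Wnt9b, and a match of these letters is a description of the sequence alone.

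The start-site windows of 6 members were found in RefSeq (GRCm38.p6), 10 windows of 300 bases in all. The core letters that TCF/LEF factors bind, CTTTGAA or CTTTGAT on either strand, occurred in none of the 10, and in 8.65% of all 32851 windows. The GC box GGGCGG, on either strand, occurred in 8 of the 10 member windows and in 35.7% of all windows, and the CCAAT box in 2 of 10 and in 37.4%. The 10 windows belong to 6 genes, so these are counts of windows and not of genes. The windows of Wnt4 (chr4:137277385-137277684, plus strand) and Wnt9b (chr11:103749772-103750071, minus strand) are shown because these 2 ligands varied together from kidney to kidney. Wnt4 varied with Wnt7b more closely still. Capitals mark the GC boxes and CCAAT boxes. Wnt4 held 8 GC boxes, some of which overlap, and no CCAAT box, and Wnt9b held 3 and 1.
Wnt4: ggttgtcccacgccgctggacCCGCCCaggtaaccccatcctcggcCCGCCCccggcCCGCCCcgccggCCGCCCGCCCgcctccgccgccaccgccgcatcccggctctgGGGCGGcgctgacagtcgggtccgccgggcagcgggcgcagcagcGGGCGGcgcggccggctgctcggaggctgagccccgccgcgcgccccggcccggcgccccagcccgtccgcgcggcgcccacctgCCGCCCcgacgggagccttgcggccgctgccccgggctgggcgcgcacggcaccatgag
Wnt9b: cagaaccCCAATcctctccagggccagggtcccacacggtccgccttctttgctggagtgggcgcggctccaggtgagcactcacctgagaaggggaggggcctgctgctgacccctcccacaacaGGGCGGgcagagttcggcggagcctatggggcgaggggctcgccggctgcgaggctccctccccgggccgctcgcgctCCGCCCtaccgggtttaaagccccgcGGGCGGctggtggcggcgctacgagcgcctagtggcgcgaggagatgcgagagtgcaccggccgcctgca

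Wnt7b (ENSMUSG00000022382, chr15:85535437-85582473, minus strand) had the smallest adjusted p of the 4 ligands in RC/- against RC/+ and against both edited RC/- groups. It measured 25.7, 44.4 and 39.9 CPM in the 3 RC/+ kidneys and 109, 133, 83.9, 83.7 and 83.4 CPM in the 5 RC/- kidneys. Every RC/- kidney was above every RC/+ kidney. Wnt7b rose by 1.43 ± 0.17 (SE) on the log2 scale, or 2.70-fold (95% interval 2.12 to 3.45; limma adjusted p = 4.18e-07). With the motif deleted, the 5 RC/- D18 kidneys measured 42.4, 32.2, 47.1, 31.8 and 43.0 CPM and the 5 RC/- D53 kidneys 43.3, 41.8, 48.6, 36.1 and 52.9 CPM. No edited RC/- kidney reached the lowest unedited RC/- kidney. The ratio to RC/- was 0.402 in D18 (0.325 to 0.496; adjusted p = 1.52e-07) and 0.457 in D53 (0.370 to 0.565; adjusted p = 3.07e-06). In the control groups Wnt7b measured 27.3 to 31.9 CPM in RC/+ D18 and 25.9 to 29.0 CPM in RC/+ D53. Within the D53 line it stayed 1.64-fold higher in RC/- D53 than in RC/+ D53 (1.28 to 2.09; adjusted p = 0.0203), and the 2 groups did not overlap. The share of all genes without overlap there is not given. Within the D18 line the ratio missed the threshold (log2 difference 0.37 ± 0.17; adjusted p = 0.522). An overlapping gene on the opposite strand, AU022754, shares 6.61% of the exon bases of Wnt7b, and the strand setting of the counts is not stated, so its reads cannot be told apart there.

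Wnt4 (ENSMUSG00000036856, chr4:137277489-137299726, plus strand) followed a like course with a wider spread. It measured 16.7, 36.1 and 22.6 CPM in RC/+ and 57.5, 75.8, 36.7, 41.8 and 49.4 CPM in RC/-. The lowest RC/- kidney was just above the highest RC/+ kidney. Wnt4 rose 2.11-fold (1.27 to 3.49; log2 change 1.08 ± 0.35, adjusted p = 0.0178). That call was lost with edgeR (adjusted p = 0.0568) and DESeq2 (0.0698), and without RC/+ replicate 4 (0.121) or 6 (0.0579). The 5 RC/- D18 kidneys measured 22.998, 10.97, 33.5, 19.3 and 22.7 CPM, all below the RC/- kidneys, at a ratio of 0.408 (0.264 to 0.632; adjusted p = 0.00136). Those of RC/- D53 measured 26.9, 16.4, 22.8, 16.3 and 51.2 CPM, at a ratio of 0.481 (0.311 to 0.743; adjusted p = 0.0100). Replicate 27 of RC/- D53 lay among the unedited kidneys. The control groups ran from 8.11 to 19.4 CPM in RC/+ D18 and from 14.7 to 18.5 CPM in RC/+ D53.

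Wnt9b (ENSMUSG00000018486, chr11:103727364-103749821, minus strand) overlapped between RC/- and RC/+. It measured 11.9, 39.6 and 15.7 CPM in RC/+ and 63.3, 48.6, 24.5, 31.4 and 63.2 CPM in RC/-. Of the RC/+ kidneys, replicate 5 exceeded 2 RC/- kidneys. The ratio of 2.21 (1.14 to 4.26) missed the threshold (log2 difference 1.14 ± 0.46, limma adjusted p = 0.0536). Without RC/+ replicate 5 the adjusted p was 0.0126, without RC/- replicate 15 it was 0.0275 and without RC/- replicate 16 it was 0.0457. With all kidneys it was 0.0471 when only genes averaging 0 or more in log2 CPM were tested. It was 0.0491 with only the groups compared in the fit. Wnt9b measured 24.5, 14.3, 22.2, 12.6 and 19.6 CPM in RC/- D18, where it fell to 0.420 of RC/- (0.237 to 0.742; adjusted p = 0.0136). Without libraries 20 to 27 the log2 difference was -1.20 with an adjusted p of 0.144, and with them as a covariate the adjusted p was 0.101. It measured 18.4, 14.7, 28.1, 19.2 and 35.7 CPM in RC/- D53, and the ratio of 0.512 (0.290 to 0.905) had an adjusted p of 0.0704, which became 0.0365 without RC/- replicate 15 and 0.0429 without RC/- D53 replicate 27. With only the groups compared in the fit, the D53 adjusted p was 0.0221. Among controls, RC/+ D18 replicate 8 was lowest of all libraries at 3.10 CPM, from 76 reads.

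Wnt5a (ENSMUSG00000021994, chr14:28504750-28527448, plus strand) passed the test in none of the comparisons. Gm2670, on the opposite strand, shares 4.58% of its exon bases. Its group means ran from 61.5 to 70.7 CPM. The RC/- kidneys measured 89.0, 80.7, 33.8, 56.7 and 53.4 CPM, a far wider range than the 67.9 to 72.4 CPM of RC/+, and the interval of the ratio between those groups was 0.642 to 1.11. RC/- replicate 15, at 33.8 CPM, was the lowest of the 24 kidneys for Wnt5a. The same kidney was the lowest of the RC/- group for Wnt4, Wnt9b, Tcf7, Lef1, Axin2 and Sfrp2 as well.

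**Figure D1:**
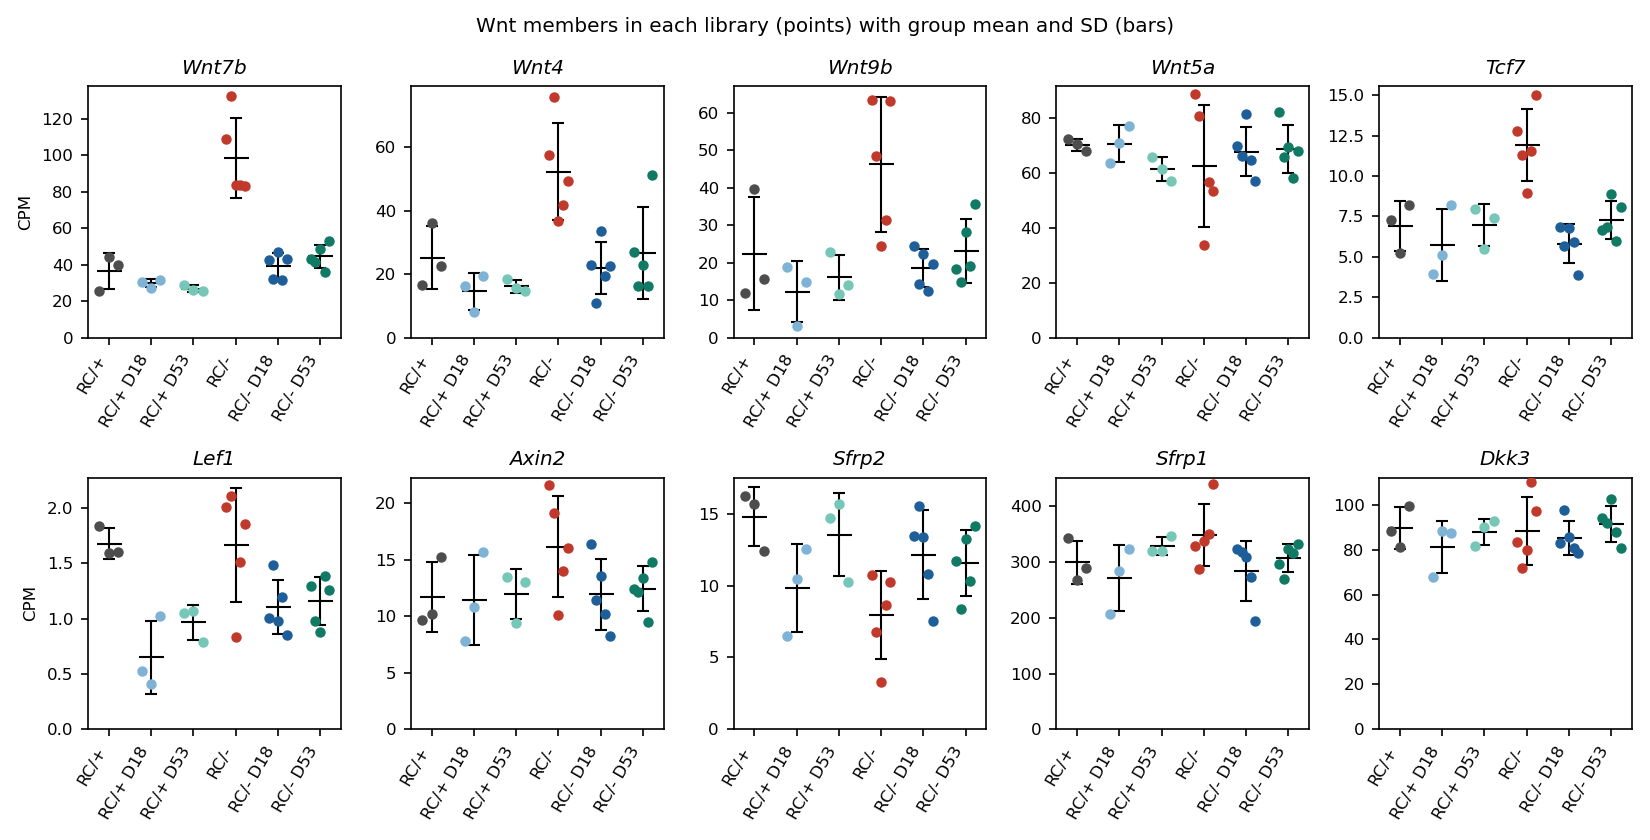
Level of each Wnt member (CPM, vertical axis from 0) in every library, by group along the horizontal axis; points are libraries, and the bars give the group mean and SD. The RC/- kidneys lie above all RC/+ kidneys for Wnt7b, Wnt4 and Tcf7 and below them for Sfrp2, while Dkk3 lies between 68.0 and 110 CPM in all groups.

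Tcf7 (ENSMUSG00000000782, chr11:52252371-52283014, minus strand) encodes a TCF/LEF factor best known from T cells. It measured 7.31, 5.22 and 8.23 CPM in RC/+ and 12.8, 11.3, 8.98, 11.5 and 14.997 CPM in RC/-. The groups did not overlap, and Tcf7 rose 1.72-fold (1.26 to 2.36; log2 change 0.78 ± 0.22, adjusted p = 0.00647). Without RC/+ replicate 5 the adjusted p was 0.0682. In RC/- D18 it measured 6.83, 5.65, 6.79, 5.89 and 3.87 CPM and in RC/- D53 it measured 6.65, 6.84, 8.87, 6.01 and 8.08 CPM. Both edited groups lay wholly below RC/-, at 0.488 (0.371 to 0.641; adjusted p = 0.000106) and 0.616 (0.469 to 0.810; adjusted p = 0.00679). With libraries 20 to 27 as a covariate the D53 difference was -0.49 on the log2 scale (adjusted p = 0.429). The 12 T cell markers summed to 10.2 to 18.9 CPM in RC/+ and 11.5 to 17.9 CPM in RC/-. Of these 12, Lck rose in RC/-, Cd8a fell and the other 10 did not pass the test. The defining marker Cd3e was at 0.287 CPM or less in every library and at 0 in 2 of them. Per 100 CPM of the summed T cell markers, Tcf7 stood at 38.7 to 81.0 CPM in RC/+ and at 52.8 to 100 CPM in RC/-, and those ranges overlap.

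Lef1 (ENSMUSG00000027985, chr3:131110471-131224356, plus strand), the other TCF/LEF factor, was the lowest member, with 10 to 50 reads per library. Gm43352 on the opposite strand shares 13.7% of its exon bases. It measured 1.84, 1.59 and 1.61 CPM in RC/+, and 2.01, 2.11, 0.834, 1.51 and 1.86 CPM in RC/-. The ratio was 0.950 (0.632 to 1.43). In RC/+ D18 it measured 0.522, 0.408 and 1.03 CPM and in RC/+ D53 1.05, 1.07 and 0.785 CPM. Neither edited control group overlapped RC/+, and in RC/+ D53 against RC/+ Wnt5a did not overlap either. With 3 against 3 kidneys the smallest exact two-sided p is 0.1. The share of all genes without overlap is not given for these groups. Of the 10 members, Lef1 in RC/+ D18 had the smallest unadjusted p among the control comparisons (0.000287; log2 difference -1.35 ± 0.32), but over all genes the adjusted p was 0.588. Without RC/- replicate 15, Lef1 passed as lower in RC/- D18 (log2 difference -0.73, adjusted p = 0.0136) and in RC/- D53 (-0.66, 0.0337) than in RC/-.

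Axin2 (ENSMUSG00000000142, chr11:108920349-108950783, plus strand) passed the test in no comparison over all 24 libraries. It measured 9.64, 10.2 and 15.3 CPM in RC/+ and 21.6, 19.1, 10.1, 13.98 and 16.1 CPM in RC/-. Of the RC/- kidneys, 2 lay within the RC/+ range. The ratio was 1.36 (0.965 to 1.93; adjusted p = 0.154). Without RC/- replicate 15 the log2 difference was 0.60 and the adjusted p 0.0470. Against RC/-, D18 passed as lower without that kidney (-0.58, adjusted p = 0.0282) or without RC/- D18 replicate 18 (-0.55, 0.0465). Means in the other groups ran from 11.4 CPM in RC/+ D18 to 12.45 CPM in RC/- D53. The opposite-strand gene Gm11670 shares 3.8% of the exon bases of Axin2.

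Among the inhibitors, Sfrp2 (ENSMUSG00000027996, chr3:83766321-83774316, plus strand) was the member that fell in RC/- against RC/+. It measured 16.3, 15.7 and 12.4 CPM in RC/+ and 10.8, 6.76, 3.30, 8.69 and 10.3 CPM in RC/-. Every RC/- kidney was below every RC/+ kidney, at a ratio of 0.503 (0.330 to 0.767; log2 change -0.99 ± 0.30, adjusted p = 0.00975). In RC/- D18 it measured 13.5, 15.5, 13.4, 10.8 and 7.53 CPM, 1.60-fold higher than RC/- (1.11 to 2.31; adjusted p = 0.0360). That call was lost without RC/- replicate 14 (0.0638) or 15 (0.150), without RC/- D18 replicate 18 (0.0728), 19 (0.0922) or 20 (0.0725), with only the groups compared in the fit (0.0882), and with no filter on expression (0.0602). Without RC/- replicate 15 the log2 change was 0.39 in place of 0.68. In RC/- D53 it measured 11.7, 8.39, 13.2, 10.3 and 14.1 CPM, and the ratio of 1.54 (1.07 to 2.22) had an adjusted p of 0.0686. The D53 value passed when scaled by TMM (0.0297) or by DESeq2 size factors (0.0323), with edgeR (0.0437) and DESeq2 (0.0247), and without RC/- replicate 13 (0.0318) or 17 (0.0426) or RC/- D53 replicate 24 (0.0453). A gene on the opposite strand, Gm26771, shares 16.1% of the exon bases of Sfrp2.

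Sfrp1 (ENSMUSG00000031548, chr8:23411502-23449632, plus strand) and Dkk3 (ENSMUSG00000030772, chr7:112116017-112159057, minus strand) passed the test in no comparison over all 24 libraries. Sfrp1 measured 268 to 343 CPM in RC/+ and 287 to 439 CPM in RC/-, with a ratio of 1.16 (0.933 to 1.43). In RC/- D18 it measured 193 to 323 CPM (ratio to RC/- 0.808, 0.671 to 0.973; adjusted p = 0.0614). It passed as lower there without RC/- replicate 14 (0.0285) or RC/- D18 replicate 18 (0.0395) or 19 (0.0419). Dkk3 measured 81.2 to 99.5 CPM in RC/+ and 71.8 to 110 CPM in RC/-. Its ratio of 0.979 had the narrowest interval of the 10 members in that comparison, 0.830 to 1.15. Against RC/-, its intervals were 0.841 to 1.12 for D18 and 0.903 to 1.20 for D53.

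Counted over the members, 3 of 10 rose in RC/- against RC/+ and 1 fell, where 25.5% of all genes tested rose and 12.2% fell. Their groups did not overlap for 4 of 10, against 37.6% of all genes. The median log2 difference was 0.33 over the members and 0.14 over all genes. Scaling by TMM moved that all-gene median to 0.01 and the split of all genes to 17% higher and 17.3% lower, and left the count of members at 3 and 1. In RC/- D18 against RC/-, 4 of 10 members fell and 1 rose, beside 26.9% and 14.3% of all genes. Groups did not overlap for 3 members, against 27.8% of genes, and the medians were -0.47 and -0.10. In RC/- D53 against RC/-, 3 of 10 fell and none rose, beside 18.9% and 11.3% of all genes, with 2 members not overlapping against 18.8%, and medians of -0.40 and -0.08. The members were thus called about as often as genes at large in RC/- against RC/+. Under TMM the splits of all genes were 19.5% lower and 19.7% higher for D18 and 13.1% and 15% for D53, and 1 member, Sfrp2, was then also higher in D53. All 3 comparisons use the same 5 RC/- kidneys, so a value that is high in those kidneys enters the first as a rise and the others as a fall.

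**Figure D2:**
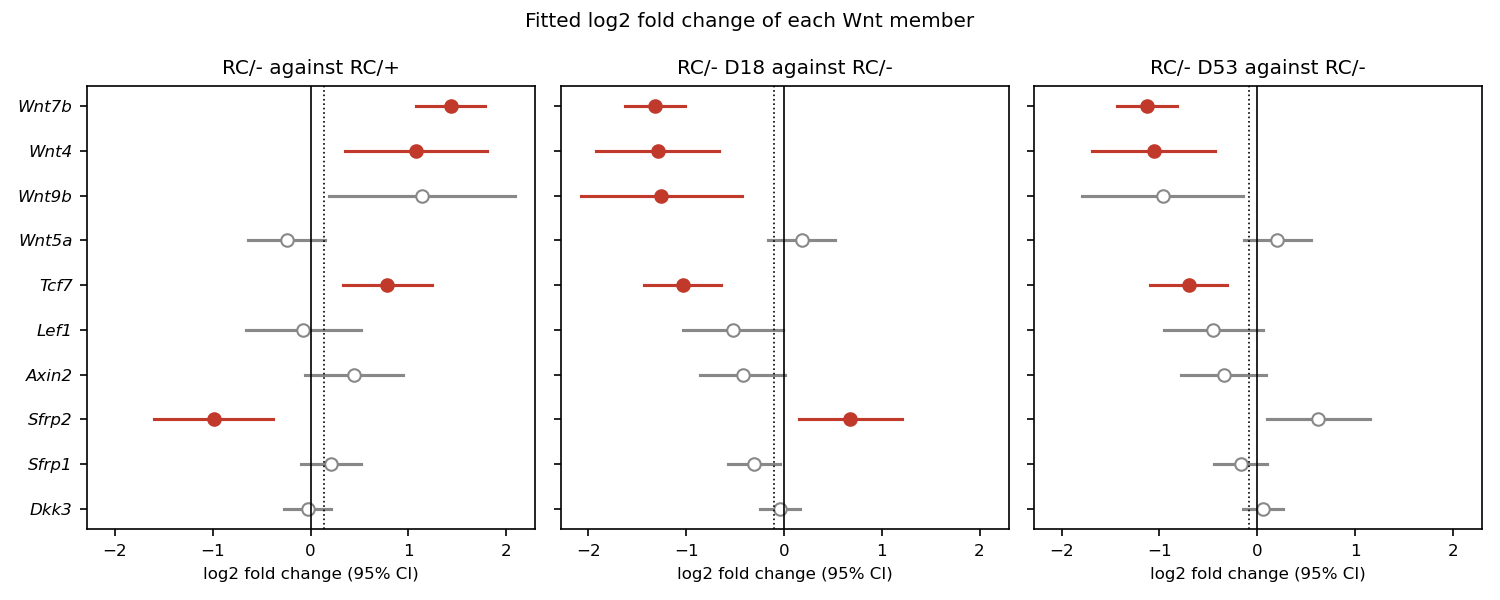
Fitted log2 fold change of each member (horizontal axis) with its 95% interval in 3 comparisons that share the RC/- kidneys; filled red points have an adjusted p below 0.05, open grey points do not, and the dotted line is the median of all genes tested. Wnt7b, Wnt4 and Tcf7 lie to the right in RC/- against RC/+ and to the left in both edited comparisons, and Sfrp2 lies on the opposite side.

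Deleting the motif in control kidneys changed none of the 10 members by limma. In RC/+ D18 against RC/+ 1 member, Lef1, had an unadjusted p below 0.05, and 0.00443% of all genes were called. In RC/+ D53 against RC/+ 2 members did, Wnt7b and Lef1, and 0.0% of all genes were called. edgeR and DESeq2 called 0 members in both. In D18 the intervals were wide for Wnt9b (0.04 to -2.08 on the log2 scale) and Wnt4 (0.01 to -1.61). For these ligands falls of that size cannot be told from no change with 3 kidneys a group. The D18 intervals of the other ligands were narrower, at -0.44 to 0.45 for Wnt5a and -0.65 to 0.14 for Wnt7b. In RC/- D18 against RC/+ D18 0 members passed, 2 had an unadjusted p below 0.05 (Wnt7b and Lef1), edgeR and DESeq2 called 0, and 0.266% of all genes were called. In RC/- D53 against RC/+ D53 Wnt7b alone passed, beside 2.45% of all genes called higher. Its call was lost without RC/+ D53 replicate 11 (adjusted p = 0.103) or 12 (0.105) and without RC/- D53 replicate 25 (0.0555) or 27 (0.0549). With libraries 20 to 27 as a covariate it was 0.291. The edited RC/- lines differed from each other in 0 members by limma, edgeR and DESeq2, none with an unadjusted p below 0.05, and in 0.266% of all genes.

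The effect of the deletion was also compared between RC/- and RC/+ kidneys by an interaction term. For D18, 2 members passed, beside 17.1% of all genes. Wnt7b differed by -1.06 ± 0.24 on the log2 scale (adjusted p = 0.00344), from a change of -1.32 in RC/- and a difference of -0.25 in RC/+ (unadjusted p = 0.197). Sfrp2 differed by 1.30 ± 0.42 (adjusted p = 0.0320), being 0.68 in RC/- and -0.63 in RC/+ (unadjusted p = 0.0695). Without RC/+ D18 replicate 7 the Sfrp2 value was 1.04 (adjusted p = 0.0988), and without libraries 20 to 27 it was 1.59 (0.0501). Its call was also lost without RC/+ replicate 4 (0.0735) or 5 (0.0730) or RC/- D18 replicate 19 (0.0513). For D53, 0 members passed by limma, edgeR and DESeq2, 2 had an unadjusted p below 0.05 (Wnt7b and Tcf7), and 11.3% of all genes passed. The D53 value of Wnt7b was -0.72 ± 0.24 (adjusted p = 0.0540). It passed without RC/+ replicate 5 (0.0332), RC/- replicate 15 (0.0481) or 16 (0.0483), or RC/- D53 replicate 27 (0.0356). The D18 value of Tcf7, -0.73 ± 0.31 (adjusted p = 0.113), passed without RC/+ D18 replicate 7 (0.0320).

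Levels can be set between genes only per length. On the scale of CPM per kilobase of exon, the mean levels in RC/+ ran in the order Sfrp1 (68.6), Dkk3 (26.7), Wnt5a (8.98), Wnt7b (7.49), Sfrp2 (6.87), Wnt4 (6.00), Wnt9b (4.96), Tcf7 (2.64), Axin2 (2.13) and Lef1 (0.191). Neighbours from Wnt5a down to Axin2 overlapped in their libraries, and Sfrp1, Dkk3 and Lef1 stood apart from theirs. In RC/- the order was Sfrp1 (79.7), Dkk3 (26.3), Wnt7b (20.1), Wnt4 (12.46), Wnt9b (10.2), Wnt5a (8.02), Tcf7 (4.54), Sfrp2 (3.695), Axin2 (2.94) and Lef1 (0.190). There Wnt7b overlapped Dkk3 above it and Wnt4 below it, and Sfrp2 was placed after Tcf7. The RC/- D18 order was the same as that of RC/+ from first to last. In RC/- D53 the mean of Wnt7b (9.09) was just above that of Wnt5a (8.80), and their libraries overlapped.

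Across the 24 libraries some members varied together, which is given as a description since the points share their groups. Wnt4 correlated with Wnt7b at a Pearson r of 0.887 and with Wnt9b at 0.879, on log2 CPM. Taken as deviations from the group means, r was 0.798 and 0.754. Axin2 correlated with Tcf7 at 0.804, and at 0.823 within groups. Wnt7b and Tcf7 correlated at 0.703 over all libraries but at 0.0924 within groups. Tcf7 correlated with Sfrp1 at 0.758, and at 0.735 within groups, and with Sfrp2 at -0.0876, and at 0.606 within groups. From kidney to kidney within a group, Tcf7 thus varied with Axin2, Sfrp1 and Sfrp2, and hardly with Wnt7b.

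**Figure D3:**
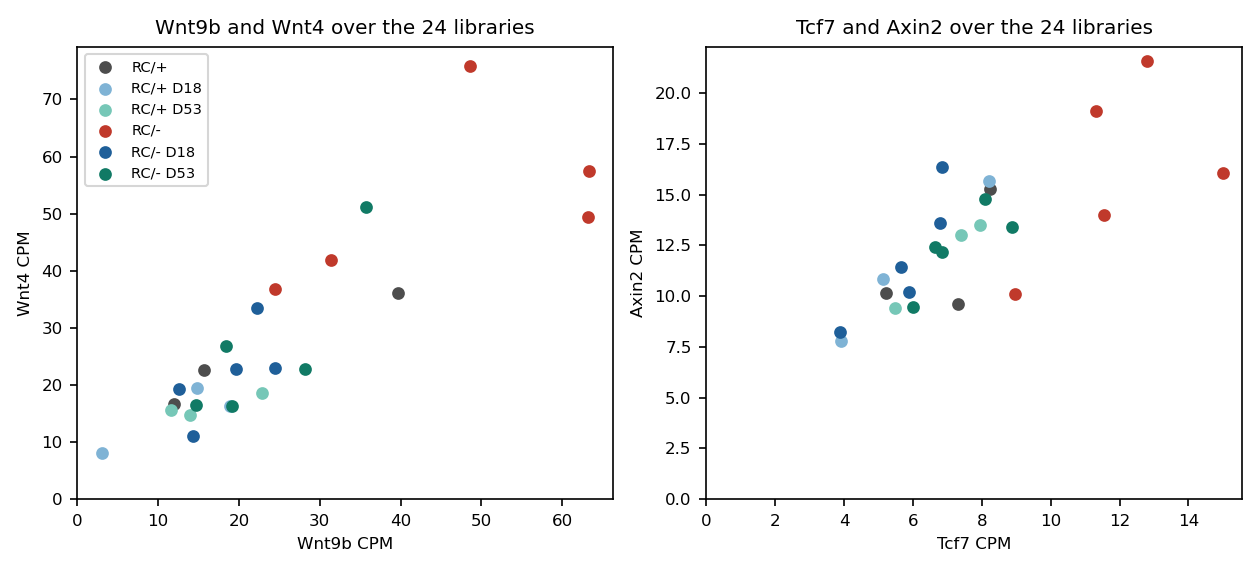
Level of Wnt4 against Wnt9b (left) and of Axin2 against Tcf7 (right), in CPM, with 1 point for each of the 24 libraries coloured by group. Wnt4 and Wnt9b rise together within groups as well as between them (r = 0.754 within groups), as do Axin2 and Tcf7 (r = 0.823).

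For each member the genes with the most similar log2 CPM over the 24 libraries were named, up to 3 a member. Wnt7b ran with Itga3 (r = 0.985), an integrin chain, Muc1 (0.984), an epithelial mucin, and Klf5 (0.983), a transcription factor of the collecting duct. Wnt4 ran with Sbspon (0.946), Msln (0.941), which encodes mesothelin, and Endod1 (0.940), and Wnt9b with Wnt4 itself (0.879), Slc16a3 (0.876) and Sbspon (0.853). Wnt5a ran with Slc14a1 (0.902), a urea transporter, and 4930511M06Rik (0.840). Sfrp1 ran with the matrix protease Mmp2 (0.931), the mesenchymal cadherin Cdh11 (0.930) and Lmntd1 (0.923). Tcf7 ran with Shc1 (0.937), Mdga1 (0.934) and Scml4 (0.930), and Axin2 with Alcam (0.870), Scube2 (0.831) and Sept4 (0.825). Sfrp2 ran with Gpr165 (0.888), Cdkn1c (0.836) and Taf7 (0.835), Dkk3 with Pde3a (0.862), March7 (0.779) and Sp3 (0.775), and Lef1 with Lgi1 (0.751), Fam89a (0.751) and Myl6b (0.748).

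Whole kidney mixes cell types, and in such samples fewer cells of a type and less RNA per cell cannot be told apart. The 12 collecting duct markers, among them the water channel Aqp2 and the sodium channel chain Scnn1b, summed to 1368 to 1669 CPM in RC/+ and 2827 to 5223 CPM in RC/-. Of these markers 8 rose in RC/-, 2 fell and none was at 0 in any library. The intercalated cell genes in the list did not move alike, since Slc4a1 and Atp6v1g3 fell while Foxi1 rose from a mean of 45.6 to 82.1 CPM (limma adjusted p = 9.3e-05). The sum was 1647 to 2042 CPM in RC/- D18 and 2060 to 3362 CPM in RC/- D53. Per 1000 CPM of that sum, Wnt7b stood at 18.5 to 29.2 CPM in RC/+ and 16.1 to 36.0 CPM in RC/-, and Wnt4 at 12.04 to 21.7 and 7.03 to 19.9 CPM. On the same scale Wnt9b stood at 8.59 to 23.75 CPM in RC/+ and 4.68 to 22.35 CPM in RC/-, and Tcf7 at 3.13 to 6.015 and 1.72 to 5.305 CPM. The ranges of RC/+ and RC/- overlap for all 4 genes, and the mean of Tcf7 on this scale was 4.80 CPM in RC/+ and 3.33 CPM in RC/-. In RC/- replicates 13 to 17 the marker sum was 3025, 3812, 5223, 4757 and 2827 CPM. In the same order Wnt7b measured 109, 133, 83.9, 83.7 and 83.4 CPM, and Wnt4 57.5, 75.8, 36.7, 41.8 and 49.4 CPM. The part of collecting duct content in the ligand values was not tested.

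The 11 stroma markers summed to 1768 to 2372 CPM in RC/+ and 3788 to 6149 CPM in RC/-. Of these 8 rose, none fell (1 under TMM) and none was at 0 in any library. Pdgfra, named after its values were seen, averaged 146.2 CPM in RC/+ and 109.2 CPM in RC/- (limma adjusted p = 0.104). Sfrp2 per 1000 CPM of that sum was 5.28 to 8.88 CPM in RC/+, 0.870 to 1.96 in RC/-, 5.04 to 6.53 in RC/- D18 and 4.09 to 5.03 in RC/- D53. Sfrp1 on the same scale was 123 to 152 CPM in RC/+ and 54.0 to 88.9 CPM in RC/-. Dkk3 was 37.16 to 45.92 and 13.68 to 21.01 CPM in these groups, and Wnt5a 28.8 to 39.86 and 8.923 to 17.53 CPM. Sfrp1, Dkk3 and Wnt5a did not pass the test by themselves in RC/- against RC/+, while Sfrp2 did. The stroma sum itself was higher in RC/-, so a member that stays level has a lower ratio there. The collagen genes Col1a1, Col1a2 and Col3a1 averaged 734.5, 1200 and 1648 CPM in RC/-, of a mean sum of 5173 CPM. In RC/+ they averaged 180.9, 498.3 and 715.1 CPM, of 2166 CPM. Of 8 markers of nephron progenitors 3 fell in RC/- and none rose. Six2, the defining gene of that list, was at 0 in 2 libraries and at 0.513 CPM at most. All 10 macrophage markers rose and all 10 proximal tubule markers fell in RC/-, with sums of 597.6 to 1087 against 269.8 to 291.3 CPM and of 1812 to 4269 against 7725 to 8318 CPM. Their part in the member values was not tested.

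**Figure D4:**
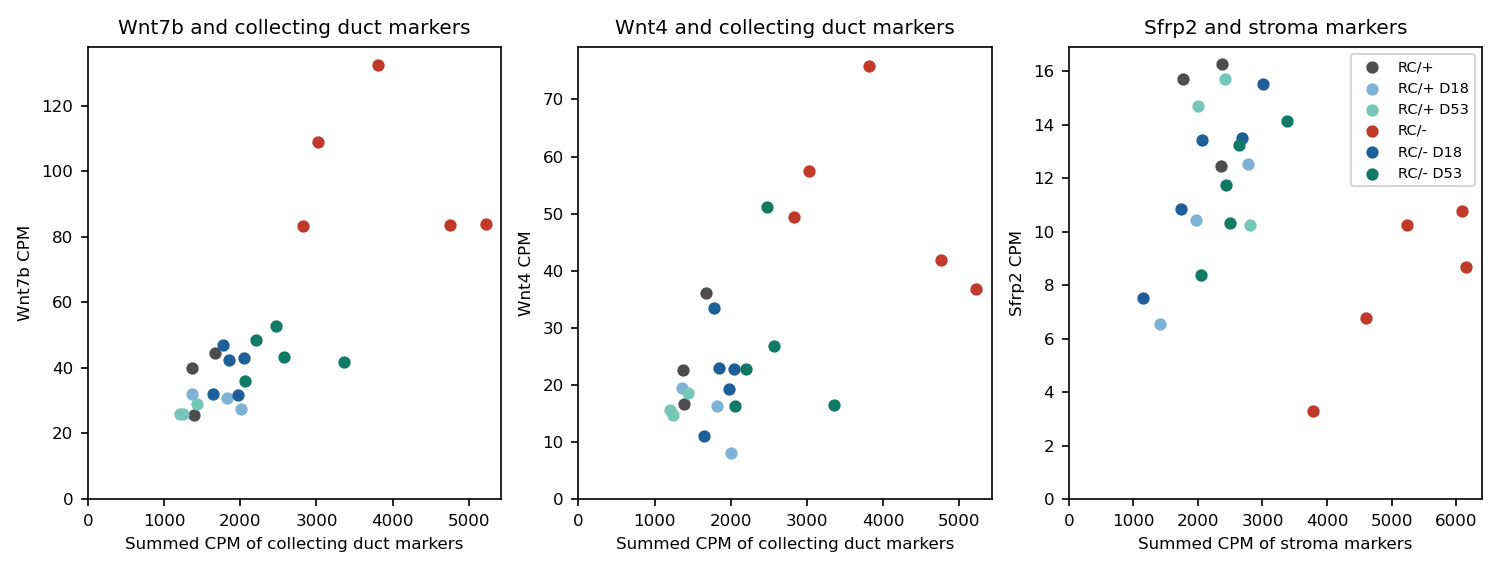
Wnt7b and Wnt4 against the summed collecting duct markers, and Sfrp2 against the summed stroma markers (all in CPM, axes from 0), with 1 point per library coloured by group. The RC/- kidneys lie at 2827 to 5223 CPM of collecting duct markers, where 1 RC/- D53 kidney reaches 3362 CPM, and at 3788 CPM or more of stroma markers, to the right of all other kidneys.

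The rest of the pathway was covered by 107 genes in 7 lists. Their counts stand beside 25.5% of all genes tested that rose and 12.2% that fell in RC/- against RC/+, 14.3% and 26.9% in D18 against RC/-, and 11.3% and 18.9% in D53 against RC/-. Among 15 other ligands 12 passed the expression filter. Of these 5 rose and 3 fell in RC/- against RC/+. Wnt7a rose by 3.66 ± 0.43 on the log2 scale (adjusted p = 3.85e-07) from 0.458 ± 0.292 to 7.11 ± 5.08 CPM (SD), and Wnt2 by 2.26 ± 0.30 (1.91e-06) from 1.01 ± 0.244 to 5.47 ± 2.43 CPM. Against RC/-, 3 rose and 5 fell in D18, and 1 rose and 4 fell in D53 (3 rose under TMM). There Wnt7a fell by 3.21 in D18 and 2.90 in D53, and Wnt2 by 2.15 and 1.96. Wnt7a had 5 to 19 reads per RC/+ library, so its fitted rise depends on the prior count. Its RC/- libraries ran from 3.495 to 15.88 CPM, with a median of 4.561 CPM. Of the 5 secretion and R-spondin genes tested, Rspo1 (0.94 ± 0.36, adjusted p = 0.0406) and the Wnt carrier Wls (0.25 ± 0.07, 0.00594) rose in RC/-, 2 fell in D18 and none passed in D53, though under TMM neither passed in RC/- and 1 in D18.

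Among the 19 receptors, 6 rose and 2 fell in RC/-. Fzd1 rose by 1.21 ± 0.13 (adjusted p = 8.99e-08), from 131 ± 28.2 to 302 ± 47.0 CPM, and Fzd2 by 0.81 ± 0.16 (0.000199). Against RC/-, 3 rose and 6 fell in D18, led by Lgr6 (1.12 ± 0.42, adjusted p = 0.0347) and Fzd2 (-0.98 ± 0.13, 2.76e-06), and 3 rose and 4 fell in D53, led by Lgr6 (1.22 ± 0.42, 0.0294) and Lgr5 (-0.67 ± 0.23, 0.0268). Under TMM the D18 counts were 5 and 5 and the D53 counts 4 and 3. Of 15 other inhibitors tested, 5 rose and 4 fell in RC/-. Dkk1, which blocks the co-receptors Lrp5 and Lrp6, rose by 2.85 ± 0.39 (adjusted p = 2.62e-06) from 0.516 ± 0.345 to 3.704 ± 1.305 CPM. Sost, another blocker of those co-receptors, fell by 2.24 ± 0.48 (0.000659), to 4 reads or fewer per RC/- library. Dkk1 had 3 to 19 reads per RC/+ library, and the fitted changes of Dkk1 and Sost depend on the prior count. Against RC/-, Sost rose by 2.24 ± 0.42 in D18 (0.000127) and 1.79 ± 0.42 in D53 (0.00195), and the Sfrp relative Frzb fell by 1.99 ± 0.15 (5.18e-10) and 1.62 ± 0.15 (3.99e-08). The counts were 4 higher and 6 lower in D18 and 3 and 4 in D53.

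Of 23 genes of intracellular transduction, 9 rose and none fell in RC/-, with Tcf7l1 at 0.80 ± 0.11 (adjusted p = 2.86e-06) and the corepressor Tle2 at 0.72 ± 0.17 (0.00146). In D18 1 rose and 10 fell, with Pygo1 at -0.89 ± 0.27 (0.0104) and Tcf7l1 at -0.83 ± 0.09 (1.66e-07), and in D53 5 fell, with Tcf7l1 at -0.57 ± 0.09 (5.82e-05) and Tle3 at -0.47 ± 0.06 (3.18e-06). Under TMM the counts higher and lower were 8 and 1 in RC/-, 2 and 6 in D18 and 1 and 3 in D53. Of 12 planar polarity genes 5 rose in RC/-, led by the cadherins Celsr1 (0.82 ± 0.16, adjusted p = 0.00022) and Celsr2 (0.73 ± 0.13, 7.63e-05). In D18 6 fell, led by Vangl2 (-0.61 ± 0.14, 0.00105) and Celsr1 (-0.55 ± 0.14, 0.00234), and in D53 5 fell, led by Prickle1 (-0.46 ± 0.12, 0.00421) and Celsr2 (-0.44 ± 0.11, 0.00358). Under TMM these counts were 5 higher and 1 lower, 1 and 4, and 1 and 3. Of 15 other beta-catenin targets tested 6 rose and 2 fell in RC/-. The adhesion receptor Cd44 rose by 2.35 ± 0.28 (adjusted p = 3.9e-07), from 3.39 ± 0.837 to 18.1 ± 6.56 CPM, and fell by 2.36 ± 0.24 in D18 (3.77e-08) and 1.76 ± 0.24 in D53 (5.3e-06). The protease Mmp7 also passed in all 3 comparisons, but it had at most 2 reads per RC/+ library and 4 to 46 per RC/- library, and its fitted change depends on the prior count. In D18 2 rose and 9 fell, and in D53 2 and 7. The median log2 difference in RC/- was 0.74 for the other ligands, 0.55 for the targets, 0.26 for transduction, 0.24 for planar polarity, 0.19 for the other inhibitors, 0.06 for the receptors and -0.10 for the secretion and R-spondin genes, beside 0.14 for all genes.

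**Figure D5:**
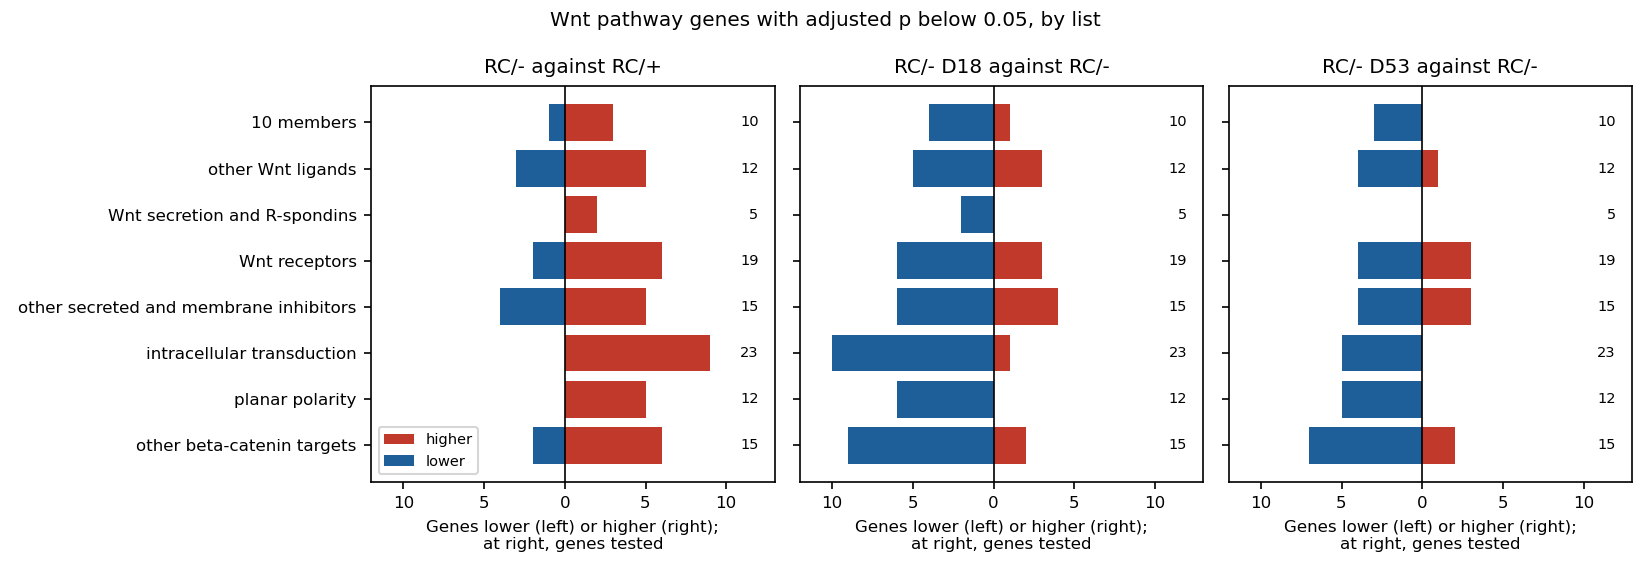
Number of genes in each Wnt pathway list that were higher (red, right) or lower (blue, left) with an adjusted p below 0.05 in 3 comparisons that share the RC/- kidneys; the number at the right edge of each row is that of genes tested. In the lists of transduction and planar polarity genes 9 and 5 rose in RC/- and none fell, while under TMM 1 fell in each.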

How the data were processed

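RNA from 24 whole kidneys of 18-day-old mice was sequenced. Per the labels and methods, the authors trimmed paired reads with Trim Galore 0.6.3, aligned them to GRCm38 with STAR 2.5.3a and counted them per gene. The deposited values are raw read counts, and the strand setting is not given in the sources used here. Sums of 20379982 to 30837488 counts per library set the precision, and Lef1, with 10 to 50 reads, is the least precise member.

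Counts were turned into log2 CPM (total counts, prior count 2). Genes whose average log2 CPM reached -3 (22570) were fitted with limma-trend 3.58.1 in R 4.3.3, with 1 mean per group over all 24 libraries. Tests were two-sided, and p-values were adjusted over all genes by Benjamini-Hochberg with a threshold of 0.05. The script was tested on simulated data. Alternatives were TMM factors (edgeR 4.0.16), DESeq2 1.42.0 size factors, other filters, prior count 0.5, the edgeR quasi-likelihood and DESeq2 tests, only the groups compared, sex and libraries 20 to 27 as covariates, and each library left out. Runs without or within libraries 20 to 27 were added after the data were seen.

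All 10 members are named in every comparison. From the 7 other pathway lists the 2 called genes with the largest change are named in each of 3 comparisons, and for each member the 3 genes with the highest Pearson r. Members and lists were chosen with earlier results of these data known. Annotation came from GENCODE M21, which matched 54409 of the 54532 identifiers, and CPM per kilobase used the merged exon length. A gene among the 3 most similar to Wnt5a is not reported here.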

Additional observations from a re-analysis of the deposited data

Results flagged for a closer look

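The effect of the D18 deletion differed between RC/- and RC/+ kidneys for 2 members by the interaction test. For Wnt7b the difference was -1.06 on the log2 scale (limma adjusted p = 0.00344), with D18 lower in RC/- (-1.32) and a difference of -0.25 in RC/+ that did not pass (unadjusted p = 0.197). For Sfrp2 it was 1.30 (adjusted p = 0.0320), with D18 higher in RC/- (0.68) and the difference negative in RC/+ (-0.63, unadjusted p = 0.0695). The 17.1% of all genes that passed the same test give the background for both.

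In the 30 sets of 5 libraries (10 members in the 3 RC/- groups), 0 had a library standing apart by Dixon's test, where chance alone flags about 1 set in 20.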

How the results depend on the processing

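The number of members called held within 1.5 times of the main count under every setting run for 6 comparisons: RC/- against RC/+ (3 to 5 calls, and 3 to 6 with a library left out), RC/- D18 against RC/- (4 to 5, and 4 to 6), and the 0 calls of RC/+ D18 and of RC/+ D53 against RC/+, of RC/- D18 against RC/+ D18 and of RC/- D53 against RC/- D18. In RC/- D53 against RC/- the count was 2 to 4, and 3 to 5 with a library left out, the 5 being without RC/- replicate 15. The single call in RC/- D53 against RC/+ D53 became 0 with libraries 20 to 27 as a covariate, and was 0 to 1 with a library left out. The interaction for D18 gave 1 call in place of 2 with no filter on expression, with only the groups compared and without libraries 20 to 27, and 1 to 2 with a library left out. For D53 it gave 1 call in place of 0 when only genes averaging 0 or more in log2 CPM were tested, and 0 to 1 with a library left out. Over all settings 25 of 100 member values were called at least once, 15 of them by the main test, and the sign of 0 of the 25 changed. The causes were not tested. With libraries 20 to 27 as a covariate the D53 line is adjusted by a difference seen in the D18 line alone, and without them RC/- D18 keeps 2 kidneys. Depth limits Lef1 most. No paired analysis was possible because the sample titles name no litter or pair.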
